A study of Mus musculus with 18 samples.

Results

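The genes described here are the unfolded protein response and chaperone genes of the mouse liver, 44 genes chosen by name from 52230 genes in all. They fall into 8 endoplasmic reticulum (ER) sensor and signalling genes, 16 ER chaperones and folding enzymes, 7 genes of ER-associated degradation, 10 cytosolic heat shock genes and 3 mitochondrial heat shock genes. Of the 44 members, 43 passed the filter on low counts (at least 10 counts in at least 4 libraries) and were tested among 10938 genes. The exception was Hspa1a, which had at most 1 count in any library. RNA-seq was done on whole liver of 18 mice on standard chow, 1 library per mouse. PP mice were homozygous for the wild-type Gckr-446P and LL mice for the Gckr-446L knock-in, which replaces a proline by a leucine in GKRP, the protein that holds the glucose-phosphorylating enzyme glucokinase in check. The males were 4 PP and 4 LL mice and the females 5 of each genotype, from a single knock-in line on a C57BL/6N background that carries the change in every tissue. Gene counts cannot show this amino acid change, so they do not check the genotype labels. The labelled ages were 9 to 14 weeks in PP males, 13 to 14 in LL males, 9 to 14 in PP females and 11 to 14 in LL females, whereas the series design text gives 14 weeks for all mice. The labelled ages were used where age was a term.

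The ER folds the proteins that a hepatocyte secretes, such as albumin and clotting factors. When unfolded proteins build up, the membrane sensors IRE1 (Ern1), PERK (Eif2ak3) and ATF6 (Atf6) are activated. IRE1 cuts a short intron out of the Xbp1 mRNA, PERK slows translation and favours the factor ATF4, and cleaved ATF6 enters the nucleus, and together they raise the transcription of chaperones and of genes that export misfolded proteins for degradation. A separate response, driven by the factor HSF1, raises the cytosolic heat shock proteins, and mitochondria hold chaperones of their own.

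The site that IRE1 cuts is shown because reads over it could tell the inactive from the active form of Xbp1. It is on the plus strand of chromosome 11 in GRCm39 (Xbp1, coding exon, chr11:5474279-5474304), and the capitals mark the 26 bases that are removed.
Xbp1 unspliced form: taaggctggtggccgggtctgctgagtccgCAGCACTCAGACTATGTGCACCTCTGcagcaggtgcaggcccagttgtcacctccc
Xbp1 spliced form: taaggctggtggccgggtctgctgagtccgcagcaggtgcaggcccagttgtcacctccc

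Promoters are shown for 3 ER chaperones whose levels varied together across mice (Hspa5, Creld2 and Hyou1), for Herpud1, which held elements of 2 kinds, and for Hspe1, which was called in males. Each is given as 270 bases before to 30 bases from the start site of the gene's most abundant transcript (GRCm39, strand in brackets). The capitals mark matches, on either strand, to the ER stress response element ERSE (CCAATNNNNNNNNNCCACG), to ERSE-II (ATTGG and CCACG parted by 1 base), to the core of the unfolded protein response element (TGACGTG), to the C/EBP-ATF element (TGATGNAA) and to a heat shock element (GAANNTTCNNGAA or TTCNNGAANNTTC).
Hspa5, chr2:34661834-34662133 (+): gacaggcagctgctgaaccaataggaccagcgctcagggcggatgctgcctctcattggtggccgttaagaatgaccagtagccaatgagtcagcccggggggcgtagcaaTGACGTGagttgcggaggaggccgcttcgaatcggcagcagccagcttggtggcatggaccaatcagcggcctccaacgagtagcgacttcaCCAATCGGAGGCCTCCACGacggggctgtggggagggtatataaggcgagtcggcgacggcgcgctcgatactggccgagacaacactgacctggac
Creld2, chr15:88703543-88703842 (+): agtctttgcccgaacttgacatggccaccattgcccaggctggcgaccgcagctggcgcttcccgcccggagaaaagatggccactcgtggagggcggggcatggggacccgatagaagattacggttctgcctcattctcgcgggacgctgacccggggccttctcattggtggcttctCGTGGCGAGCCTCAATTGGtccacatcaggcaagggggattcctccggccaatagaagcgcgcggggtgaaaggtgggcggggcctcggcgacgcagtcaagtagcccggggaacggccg
Hyou1, chr9:44290503-44290802 (+): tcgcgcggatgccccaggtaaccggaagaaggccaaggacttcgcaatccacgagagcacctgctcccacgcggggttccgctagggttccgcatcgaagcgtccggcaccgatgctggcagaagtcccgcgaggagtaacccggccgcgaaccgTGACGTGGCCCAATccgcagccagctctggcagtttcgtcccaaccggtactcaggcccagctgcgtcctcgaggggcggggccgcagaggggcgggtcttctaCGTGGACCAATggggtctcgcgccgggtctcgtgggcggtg
Herpud1, chr8:95112767-95113066 (+): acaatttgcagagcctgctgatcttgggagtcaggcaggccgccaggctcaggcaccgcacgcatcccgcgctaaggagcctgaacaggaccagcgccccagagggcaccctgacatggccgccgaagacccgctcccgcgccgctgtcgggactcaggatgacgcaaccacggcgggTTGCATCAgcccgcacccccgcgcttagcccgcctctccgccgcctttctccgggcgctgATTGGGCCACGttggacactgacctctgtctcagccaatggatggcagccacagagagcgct
Hspe1, chr1:55127021-55127320 (+): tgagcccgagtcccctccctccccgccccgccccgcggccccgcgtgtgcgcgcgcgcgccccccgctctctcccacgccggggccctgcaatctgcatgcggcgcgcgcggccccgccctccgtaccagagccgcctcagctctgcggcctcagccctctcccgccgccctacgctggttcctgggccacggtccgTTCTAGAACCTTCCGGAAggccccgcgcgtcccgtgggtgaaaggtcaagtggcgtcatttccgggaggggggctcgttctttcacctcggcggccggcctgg
An ERSE lay in 7 of the 16 promoters of ER chaperones (Calr, Canx, Creld2, Dnajc3, Hsp90b1, Hspa5 and Pdia6) and in that of Derl3, against 15 of 10937 promoters of all genes tested (0.137%). ERSE-II was found in Dnajb11, Hyou1 and Herpud1, and in 0.0823% of all promoters. In Hyou1 a core element (2.39% of all promoters, also in Hspa5 and Syvn1) overlapped an ERSE-II. The C/EBP-ATF element was in Ddit3 and Herpud1 (2.63% of all promoters). The heat shock element was in the windows of Hspe1 and Hspd1 (0.485% of all promoters), which lie head to head and share the same bases. None of the other members' windows, including those of Ern1, Xbp1, Dnajb9 and the 10 cytosolic heat shock genes, held any of these letters. Pdia3, Pdia4, P4hb and Manf also held none, although their levels varied together with those of other chaperones. Only exact letters within the 300 bases were sought, so imperfect or more distant elements would be missed.

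Each library held between 3794671 and 6613905 estimated counts. The fragment length of the libraries, read from the deposited effective lengths, was shorter in LL females (247 to 377 bases) than in PP females (369 to 631 bases; p = 0.0159, two-sided exact permutation test), and 202.9 to 582 bases in LL males against 396 to 629.7 in PP males (p = 0.286). The shortest fragments were in male LL 2, female LL 4 and female LL 5, so results that rest on them are given with and without them. Genes of the mitochondrial genome took 9.09% to 12.0% of the counts in PP females and 10.51% to 13.7% in LL females (p = 0.0317, exact permutation test). All 10 hepatocyte markers were detected in every library, with sums of 396300 to 499700 normalized counts in PP males, 491500 to 578200 in LL males (exact permutation p = 0.0571), 715700 to 825000 in PP females and 616100 to 742600 in LL females (p = 0.0159). The sum was higher in females in both genotypes (p = 0.00794 each, exact permutation tests). Alb made up most of it, with a mean of 519900 normalized counts, ahead of Ttr at 22520. By LL, 7 of the 10 markers had estimates above 0 in males and 5 in females. In females against males 7 of the markers were above 0 in PP and 4 in LL mice. Their part in the results below was not tested. The 10 Kupffer cell markers summed to 1185 to 1445 normalized counts in PP females and 734 to 1157 in LL females (p = 0.00794, exact permutation test), and to 675 to 1636 in PP males and 623 to 1036 in LL males (p = 0.2). All 10 had estimates below 0 by LL in both sexes, and none was at 0 in any library. The 14 acute phase genes also had estimates below 0 in males, 3 of them called. In whole liver, fewer cells of a type and less RNA per cell cannot be told apart. Normalized counts below are estimated counts divided by the size factor of the library.

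Per length, the folding machinery was far more abundant than its sensors. P4hb, the protein disulfide isomerase, had a median of 666 TPM (a level scaled for transcript length and library size) over the 18 mice, calreticulin (Calr) 296, the luminal HSP90 (Hsp90b1) 255 and BiP (Hspa5), the main ER HSP70, 206. Among the sensors, Ern1 had a median of 2.18 TPM, Atf6 3.69 and Eif2ak3 0.824, whereas Xbp1 reached 64.4 and Atf4 26.5. Of the cytosolic members, the constitutive HSP70 Hspa8 was highest at 797 TPM and the inducible Hspa1b lowest of those tested at 0.448. The mitochondrial members lay close together, at 244 TPM for Hspe1, 146 for Hspd1 and 102 for Hspa9. The effectors Ddit3 (8 to 27 counts per library) and Trib3 (3 to 15 counts) were near the limit of what this depth resolves.

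**Figure D1:**
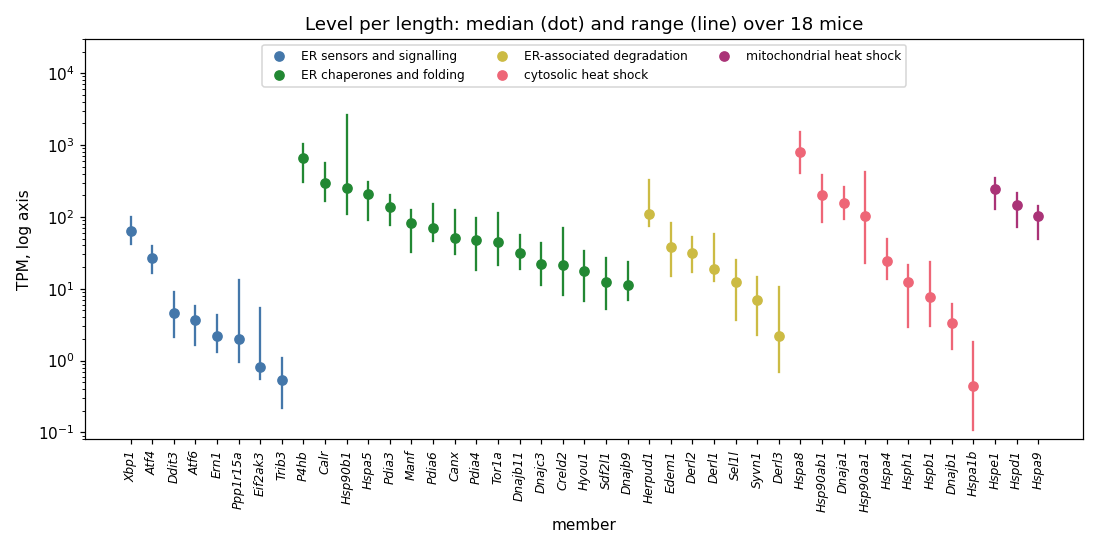
Level of each tested member in TPM on a log axis, with the median over the 18 mice as a dot and the range as a line, grouped by role. P4hb (666 TPM) and Hspa8 (797 TPM) are highest, while Ern1 (median 2.18 TPM) and Eif2ak3 (0.824 TPM) are low.

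Ern1 (ENSMUSG00000020715, minus strand of chromosome 11, 106283818 to 106378686) was the only member that differed by LL genotype in both sexes. It was counted at 182, 154, 139 and 163 normalized counts in the PP males and at 99.8, 99.5, 99.9 and 104 in the LL males. In females the values were 145, 140.0, 112, 116 and 185 in PP and 104, 86.0, 101, 67.9 and 65.7 in LL mice. All LL mice lay below all PP mice of the same sex. By DESeq2 fitted to all genes tested, the log2 fold change was -0.66 ± 0.19 (SE, adjusted P = 0.0471) in males and -0.71 ± 0.17 (SE, adjusted P = 0.00581) in females. Called here means an adjusted P below 0.05 together with a fold of 1.3 or more, or of 0.7 or less. Averaged over the sexes it was -0.69 ± 0.12 (SE, adjusted P = 3.92e-05), a level of 0.622 of that in PP mice (95% interval 0.525 to 0.736). The averaged call stood in all 27 alternative analyses, with an adjusted P from 9.74e-06 to 0.0164, including edgeR at 0.016. The calls within each sex were weaker. That in males was lost in 24 of 28 alternatives, including leaving out any 1 library other than male PP 3, female PP 5, female LL 4 or female LL 5, with log2 fold changes between -0.72 and -0.52. That in females was lost in 6 of 28, among them without female PP 5 or female LL 3, with edgeR (adjusted P = 0.117) and without the 3 libraries of shortest fragments, and ranged from -0.80 to -0.53. With fragment length as a term the averaged call stood and the call in each sex was lost. In TPM the Ern1 means in males were closer than in normalized counts, 1.98 ± 0.37 in PP and 1.78 ± 0.40 in LL males (SD). In females they were 3.25 ± 0.71 in PP and 1.97 ± 0.29 in LL mice. The part of the lower Kupffer cell markers in the Ern1 difference was not tested.

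Background calls were few. In males 31 of 10938 genes were called (0.283%), and of the 43 members tested 3 were called higher (0.21% of all genes) and 1 lower (0.0731%). In females 72 genes were called (0.658%, and 0.293% lower), and Ern1 was the only member. Averaged over the sexes it was 107 genes (0.978%, and 0.384% lower), again with Ern1 the only member. Only genes given an adjusted P could be called, which in males were 34 of the 43 members and 3301 of all genes. In females they were 40 members and 8598 genes, and averaged over the sexes 38 and 7541. The shares of all genes therefore include many that could not be called, above all in males. At an unadjusted P below 0.05 there were 10 of 43 members in males (7.81% of all genes), 7 in females (13.0%) and 5 averaged over the sexes (13.8%). With edgeR, 0 members and 3 of all genes were called in each sex. Groups did not overlap for 3 members in males (Ern1, Tor1a and Hspe1), against 4.07% of all genes, and for Ern1 alone in females, against 2.66%.

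**Figure D2:**
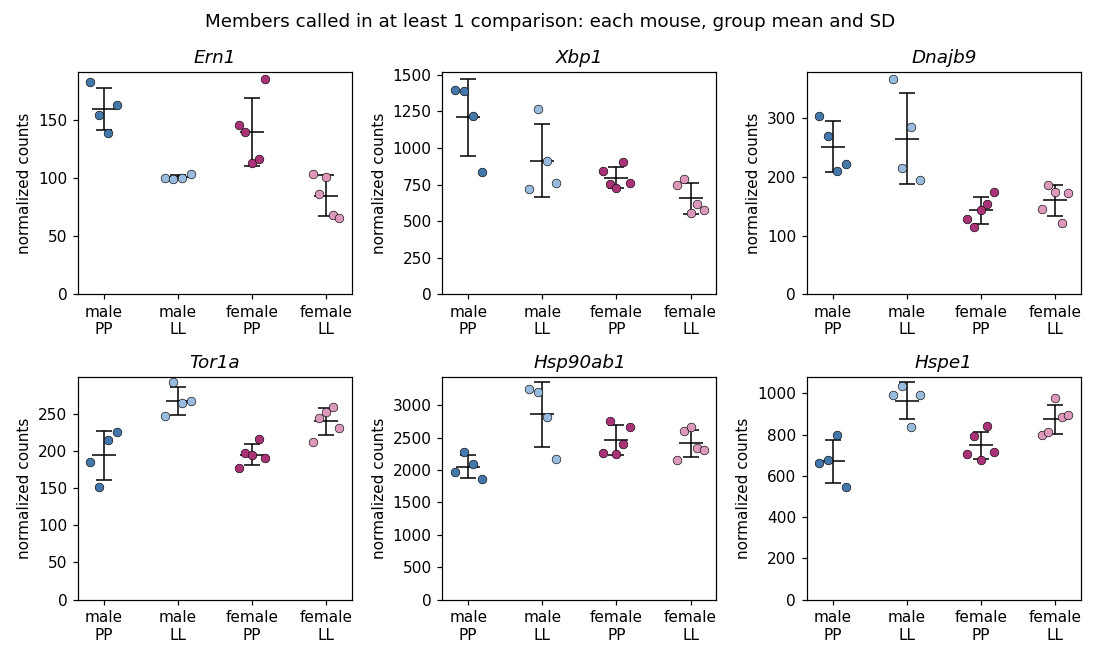
Normalized counts of the 6 members called in at least 1 comparison, with each mouse as a point and the group mean with its SD as a line and bars. Ern1 is lower in all LL than in all PP mice of the same sex, Dnajb9 is lower in all females than in all males of the same genotype, and Tor1a and Hspe1 are higher in all male LL than in all male PP mice.

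Xbp1, the transcription factor mRNA that IRE1 splices, was counted at 1398, 1390.0, 1219 and 836 normalized counts in PP males and at 718, 1265, 912 and 760.5 in LL males. It stood at 843, 755, 728, 904 and 761 in PP females and at 749, 789, 557, 616 and 574 in LL females. The groups overlapped in both sexes, with log2 fold changes by LL genotype of -0.41 ± 0.19 (SE, adjusted P = 0.37) in males and -0.28 ± 0.17 (SE, adjusted P = 0.432) in females. With fragment length as a term, Xbp1 was called lower averaged over the sexes, which it was not in the fit as designed at -0.34 ± 0.13 (SE, adjusted P = 0.114). The deposited transcripts hold 1 spliced form, Xbp1-205, of 1116 bases, beside the full-length unspliced Xbp1-201 of 2134 bases. Reads were put on the spliced form in only 2 mice, 126 of 929 estimated counts in male PP 4 (13.6%) and 72.2 of 867 in female PP 3 (8.33%). The other 16 mice were listed at 0. With 1 mouse above 0 in each sex, these shares allow no test by genotype. Both mice with a share above 0 have the longest fragments of all 18, 629.7 and 631 bases.

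Neither of the other sensors was called by genotype. Atf6 was at 205, 291, 175 and 221 in PP males, 237, 167, 199.9 and 236 in LL males, 219.6, 196, 214, 179 and 259.6 in PP females and 147, 212, 194, 115 and 140.1 normalized counts in LL females. The difference in log2 was -0.09 ± 0.20 (SE, adjusted P = 0.958) in males and -0.40 ± 0.18 (SE, adjusted P = 0.254) in females. Eif2ak3, with few counts, was at 46.4, 57.7, 31.96 and 35.1 in PP males, 38.9, 19.2, 39.3 and 31.3 in LL males, 16.8, 34.5, 24.3, 23.6 and 25.7 in PP females and 16.4, 23.7, 20.3, 18.5 and 17.5 in LL females. PP and LL mice overlapped for both genes. For Eif2ak3 the log2 fold change was -0.39 ± 0.28 (SE) in males and -0.37 ± 0.27 in females.

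The PERK branch downstream of the sensor showed no call by genotype either. Atf4 was at 336, 308, 313 and 269 in PP males, 237, 308, 252 and 258 in LL males, 258, 271, 248, 235 and 230.4 in PP females and 262, 257, 239, 338 and 283 normalized counts in LL females. Its log2 fold change was -0.21 ± 0.13 (SE, adjusted P = 0.54) in males and 0.15 ± 0.11 (SE, adjusted P = 0.568) in females. Ddit3, which encodes the factor CHOP, had 16, 9.44, 14.1 and 13.5 in PP males, 10.4, 14.4, 24.1 and 15.1 in LL males, 17.6, 24.6, 11.8, 7.25 and 13.9 in PP females and 16.4, 12.8, 8.13, 13.6 and 27.4 in LL females. A second annotation record of Ddit3 had 0 counts in every library. CHOP marks prolonged ER stress, and no mouse reached 30 counts. Trib3, a pseudokinase induced by ATF4 and CHOP, had the widest range of the sensor and signalling group, at 16, 8.39, 5.64 and 6.30 in PP males, 6.48, 7.19, 7.14 and 9.72 in LL males, 12.0, 8.18, 11.8, 9.06 and 4.16 in PP females and 10.9, 2.96, 5.69, 7.40 and 5.47 in LL females. Counts this low could not show a moderate change. Ppp1r15a, the subunit that reverses the PERK signal, had 14.3 to 39.6 normalized counts over all mice. Over the 8 sensor and signalling genes the median log2 difference by LL was -0.19 in males and -0.32 in females, with 7 and 5 estimates below 0, beside a median of 0.00 and 0.01 over all genes.

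Most ER chaperones had estimates above 0 in males and below 0 in females. In males 12 of 16 were above 0 (50% of all genes) with a median log2 difference of 0.11, and in females 3 of 16 were above 0 (51.6% of all genes) with a median of -0.26. In males Tor1a was called and no other chaperone, and in females none was called by DESeq2 or edgeR, with 4 of 16 at an unadjusted P below 0.05 (13.0% of all genes). Leaving out 1 library moved the male median between 0.02 and 0.23, to 0.02 without male PP 4, 0.03 without male LL 2, 0.17 without male LL 3, 0.18 without male LL 1, 0.22 without male LL 4 and 0.23 without male PP 2. The female median ranged from -0.37 to -0.15, and was -0.15 without female LL 4 and -0.16 without female LL 5. Without the 3 libraries of shortest fragments, which include female LL 4 and female LL 5, it was -0.00 with 8 of 16 estimates below 0, and the male median, then without male LL 2, was 0.04. With all mice and fragment length as a term the medians were -0.35 in females and 0.06 in males. With age as a term they were -0.15 in females, 10 of 16 below 0, and 0.17 in males, 15 of 16 above 0. Endothelial and stellate cell markers had the same signs, whereas other marker lists did not. Kupffer cell markers were above 0 by LL for 0 of 10 in either sex. Red blood cell markers went the other way, with 1 of 5 above 0 in males and 5 of 5 in females. By LL, 8 of 9 endothelial markers were above 0 in males (median 0.39) and 0 of 9 in females (median -0.55, summed to 498 to 965 normalized counts in PP and 370.2 to 722 in LL females), and stellate cell markers were above 0 for 7 of 7 in males and 1 of 7 in females. Their part in the chaperone values was not tested.

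Hspa5 shows the pattern. It was at 2638, 4127, 2985 and 2051 normalized counts in PP males and 3133, 4568, 3373 and 3138 in LL males. In females it was at 4103, 3569, 3544, 3036 and 3949 in PP and 2955, 4421, 2855, 1692 and 1838 in LL mice. The lowest values of all were in female LL 4 and female LL 5 and the highest in male LL 2. These gave log2 fold changes of 0.27 ± 0.25 (SE, adjusted P = 0.757) in males and -0.40 ± 0.23 (SE, adjusted P = 0.39) in females. Creld2, an ER protein induced strongly by ER stress, had the widest range of the chaperones, 6.31-fold, at 107, 197, 132 and 91.8 in PP males, 94.6, 553, 175 and 151 in LL males, 273, 229, 248, 133 and 221 in PP females and 194, 320.1, 165, 87.6 and 124 in LL females. Its male log2 fold change of 0.88 ± 0.50 (SE, adjusted P = 0.505) came with 1 mouse outside the PP range, male LL 2, the other LL males lying within it. Hyou1, a large HSP70-like chaperone, had the female estimate farthest from 0 among the chaperones at -0.55 ± 0.30 (SE, adjusted P = 0.376), with 668, 626, 702, 508 and 894 in PP and 486, 860.5, 425, 217 and 338 in LL mice. Its male values were 365, 765, 458 and 393 in PP and 424, 839, 508 and 376 in LL mice. PP and LL groups overlapped for these 3 chaperones.

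Male LL 2 held the highest level of 9 of the 16 chaperones, and female LL 4 and female LL 5 held the lowest of 7 and 3. The median over the 16 genes of the log2 level relative to all mice was 0.56 in male LL 2. It was -0.58 in female LL 4 and -0.54 in female LL 5, and between -0.28 and 0.41 in the other mice. These 3 libraries have the shortest fragments. Within groups the levels of most chaperones varied together from mouse to mouse. The median Pearson correlation over the 120 pairs of the 16 genes, of deviations from the group mean in log2 level over 18 mice, was 0.73, beside -0.00 over all pairs of tested genes. These points share library and depth. The pair Hsp90b1 and Pdia4 reached 0.943, Hspa5 and Hyou1 0.92, and Hspa5 and Creld2 0.839. Dnajb9 and Tor1a stood outside, at 0.187 and -0.381 with Hspa5.

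Tor1a (torsin A, an ATPase of the ER and nuclear envelope; chromosome 2, 30845028 to 30857945, minus strand) was called higher in LL males. It was at 186, 152, 214 and 226 normalized counts in PP males and 248, 292, 264 and 267 in LL males. Female values were 176, 197, 195, 216 and 191 in PP and 212, 245, 252.1, 259 and 231 in LL mice. Male groups did not overlap, and in females only LL 1 lay within the PP range. In log2 the difference was 0.45 ± 0.13 (SE, adjusted P = 0.0471) in males and 0.30 ± 0.11 (SE, adjusted P = 0.163) in females. Averaged over the sexes it was 0.38 ± 0.09 (SE, adjusted P = 0.00324), at a fold of 1.299, just under the limit of 1.3. The male call was lost in 17 of 28 alternatives, among them without male PP 1, male PP 2, any male LL mouse, female PP 3 or female PP 5, and with average transcript length as an offset the log2 fold change was 0.15.

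**Figure D3:**
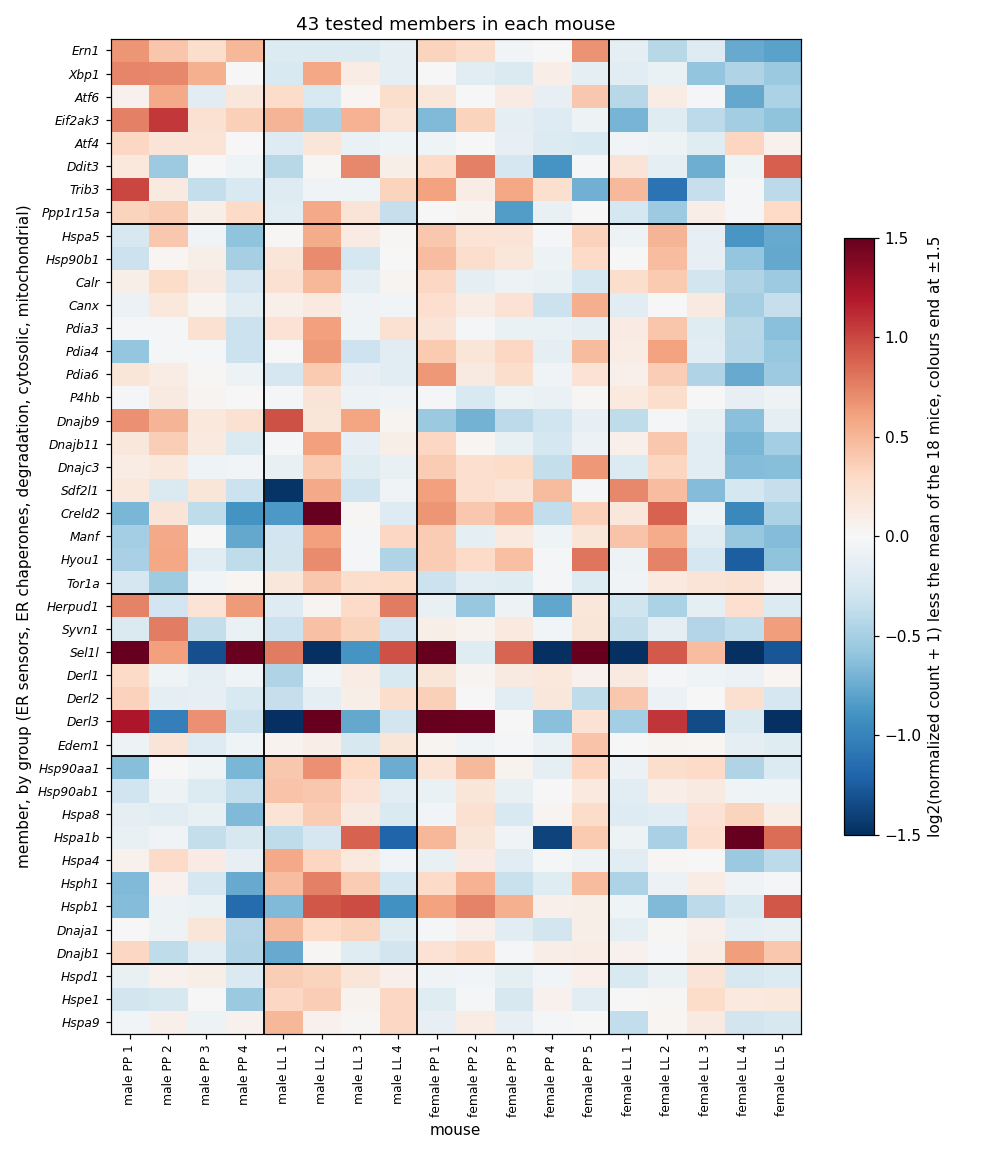
Each tested member (row) in each mouse (column), as log2(normalized count + 1) less the mean of the 18 mice, with colours ending at ±1.5. The block of ER chaperones is red in male LL 2 and blue in female LL 4 and female LL 5, and the cytosolic heat shock block is red in male LL 1 to male LL 3.

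In ER-associated degradation, which draws misfolded proteins out of the ER for the proteasome, 0 of 7 members were called by genotype in either sex by DESeq2 or edgeR, and 0 had an unadjusted P below 0.05. Sel1l, the scaffold of the HRD1 ubiquitin ligase, varied most and had the largest differences, at 346, 187, 47.9 and 340.3 normalized counts in PP males, 209, 42.0, 65.1 and 236 in LL males, 378, 107, 222, 22.6 and 499 in PP females and 32.8, 230.2, 168, 33.3 and 49.2 in LL females. High and low mice were found in every group, a 22.0-fold range over all mice. Its estimates were -0.74 ± 0.87 (SE, adjusted P = 0.846) in males and -1.26 ± 0.78 (SE, adjusted P = 0.445) in females. Derl3, a derlin that is induced by ER stress, ranged 20.4-fold with 3 to 66 counts per library. The ligase Syvn1, the derlins Derl1 and Derl2, Edem1 and Herpud1 had log2 fold changes between -0.14 and 0.06 in males and between -0.17 and 0.08 in females.

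Among cytosolic heat shock members 8 of 9 estimates were above 0 in males (50% of all genes), with a median log2 difference of 0.40, and 4 of 9 in females, with a median of -0.03. In males 5 of 9 were higher at an unadjusted P below 0.05, which 3.84% of all genes were, and Hsp90ab1 was called. Within groups the 9 genes varied together (median Pearson correlation 0.46 over 36 pairs), so the 5 are not independent of each other. The male median was 0.29 to 0.50 when any 1 library was left out, 0.32 without the 3 libraries of shortest fragments, 0.23 with fragment length as a term and 0.21 with the length offset. Male LL 4 was below the other male LL mice for Hsp90aa1, Hsp90ab1, Hspa8 and Hsph1, and male PP 4 was the lowest of all mice for 5 of the 9 genes.

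Hsp90ab1, the constitutive cytosolic HSP90 (chromosome 17, 45878552 to 45891949, minus strand), was at 1966, 2285, 2093 and 1865 normalized counts in PP males and 3247, 3200.0, 2819 and 2163 in LL males. In females it was at 2264, 2752, 2239, 2405 and 2668 in PP and 2160.0, 2599, 2657, 2336 and 2303 in LL mice. Male LL 1, 2 and 3 lay above every male PP mouse, and male LL 4 lay within their range. The estimate was 0.48 ± 0.13 (SE, adjusted P = 0.0333) in males and -0.03 ± 0.11 (SE, adjusted P = 0.932) in females. The male call was lost in 14 of 28 alternatives, among them without any male PP mouse, male LL 1, male LL 2 or female PP 5, and its log2 fold change ranged from 0.21 to 0.59. Without male LL 4, Hsp90aa1 and Hsph1 were called too. Hspb1, the small heat shock protein HSP27, had the largest male estimate of the 9 at 0.80 ± 0.42 (SE, no adjusted P), with 20.8, 31.5, 31.02 and 14.4 in PP males and 20.7, 64.7, 66.9 and 17.3 in LL males. Its female values were 51.1, 56.4, 48.7, 35.3 and 35.4 in PP and 31.9, 20.8, 25.2, 28.4 and 64.6 in LL mice. The spread within LL groups exceeded the difference. Inducible Hspa1b was at 8.0, 8.39, 6.58 and 7.20 in PP males, 6.48, 7.19, 16.9 and 3.24 in LL males, 12.8, 10, 8.39, 2.72 and 11.8 in PP females and 8.19, 5.93, 10.6, 27.1 and 16.4 in LL females. Hspa1a and Hspa1b share 65.4% and 68.0% of their 31-base words, so the division of reads between them is uncertain. Hspa8, Hsp90aa1 and Hspb1 share 42.2% to 51.7% of theirs mostly with 1 other gene each, listed at 0 to 3.89 normalized counts.

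All 3 mitochondrial members were above 0 in males and Hspe1 was called. Hspe1, the HSP10 lid of the mitochondrial chaperonin (chromosome 1, 55127260 to 55130476, plus strand), was at 661, 679, 796 and 544 normalized counts in PP males and 992, 1037, 834 and 993 in LL males. In females it was at 707, 795, 677, 839.8 and 716 in PP and 798, 810.1, 975, 886 and 896 in LL mice. The male groups did not overlap and the female groups did. On the log2 scale the difference was 0.52 ± 0.12 (SE, adjusted P = 0.00441) in males, 0.23 ± 0.11 (SE, adjusted P = 0.296) in females and 0.38 ± 0.08 (SE, adjusted P = 0.00182) averaged over the sexes, at an averaged fold of 1.297, just under the limit. Of the male calls it was the most stable, lost in 9 of 28 alternatives, among them edgeR (adjusted P = 0.213) and leaving out male PP 1, male PP 2, male PP 4, male LL 1 or male LL 2, with log2 fold changes from 0.43 to 0.62. Its partner Hspd1 (HSP60), transcribed from the same promoter region, was at 0.28 ± 0.11 (SE, adjusted P = 0.283) in males and -0.07 ± 0.10 (SE, adjusted P = 0.803) in females. Hspd1 shares 50.1% of its 31-base words with other genes, mostly Hspd1-ps3, at 0 to 3.15 normalized counts. Mitochondrial HSP70 (Hspa9) was at 0.23 ± 0.13 (SE, adjusted P = 0.499) in males and -0.10 ± 0.11 (SE, adjusted P = 0.739) in females.

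The genotype by sex interaction tested these contrasts directly and called 0 of 43 members by DESeq2 or edgeR, against 13 of 10938 genes (0.119%) by DESeq2. Only 25 of the 43 members and 1606 of all genes had an adjusted P by DESeq2, so the others could not be called by it. At an unadjusted P below 0.05, 8 of 43 members passed, where 5.67% of all genes did, with 1 above 0 (2.77% of all genes) and 7 below (2.9%). Hsph1, an HSP110 co-chaperone of HSP70, had the smallest P, at -1.03 ± 0.32 (SE, unadjusted P = 0.00128, no adjusted P), and Hsp90ab1 was at -0.51 ± 0.17 (SE, adjusted P = 0.146). Both were called without male LL 4. The interaction median of the ER chaperones was -0.39, and -0.00 without the 3 libraries of shortest fragments, while that of the cytosolic members was -0.39 and -0.41. Without male LL 2 alone the chaperone median was -0.22. For Ern1 the interaction was -0.06 ± 0.25 (SE, unadjusted P = 0.823).

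Between the sexes the clearest member was Dnajb9, an HSP40 co-chaperone of BiP that also restrains IRE1 (chromosome 12, 44252341 to 44257171, minus strand). It was at 304, 269.6, 211 and 222 normalized counts in PP males and 129, 116, 144, 154 and 174 in PP females. In LL mice it was at 367, 215, 286 and 196 in males and 146, 186, 175, 122 and 173 in females. Every female lay below every male of the same genotype. Females against males, the log2 fold change was -0.80 ± 0.19 (SE, adjusted P = 0.000876) in PP and -0.72 ± 0.19 (SE, adjusted P = 0.0052) in LL mice. The first was called in all 28 alternatives, and the second was lost only without male LL 1, at -0.54 and an adjusted P of 0.0693. By LL genotype Dnajb9 was at 0.08 ± 0.20 (SE) in males and 0.16 ± 0.18 in females.

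Xbp1 was called lower in females among PP mice, at -0.60 ± 0.18 (SE, adjusted P = 0.0163), with male PP 4 within the female range. That call was lost in 7 of 28 alternatives, among them edgeR (adjusted P = 0.0544) and leaving out male PP 1, 2 or 3 or female PP 2 or 3. In LL mice the difference was -0.48 ± 0.18 (SE, adjusted P = 0.0877) and was not called. The direction for Xbp1 in PP mice depended on the unit. In TPM it was higher in PP females, at 79.95 ± 8.99 against 66.7 ± 13.4 in PP males (SD). LL females were at 58.5 ± 7.54 TPM and LL males at 65.0 ± 24.4. Eif2ak3 missed the threshold narrowly in PP mice at -0.77 ± 0.26 (SE, adjusted P = 0.0501), and was at -0.74 ± 0.29 (SE, adjusted P = 0.0947) in LL mice. In all, 2 of 43 members were called between PP sexes, both lower in females, where 6.45% of all genes were called and 2.77% lower. Between LL sexes 1 member was called, lower, where 6.12% of all genes were and 2.79% lower. At an unadjusted P below 0.05 there were 11 members in PP (17.5% of all genes) and 10 in LL mice (20%). Groups did not overlap for 3 members in PP (Dnajb9, Ppp1r15a and Hspb1), against 9.74% of all genes, and for Dnajb9 in LL, against 8.16%. The adjusted P of Hspa4 (0.0252), Hspd1 (0.0215) and Hspa9 (0.0378) passed in LL mice with females lower, but their folds stayed within the limits. Other cell types' markers differed too, since the 9 endothelial markers summed to 266 to 461 normalized counts in PP males and 498 to 965 in PP females (p = 0.0159, exact permutation test), and the 7 tested stellate cell markers all had estimates above 0 in females among PP mice. Their part in the sex differences was not tested.

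Of the 9 cytosolic heat shock members, 8 had female against male estimates above 0 in PP (49.8% of all genes) and 2 in LL mice (51.5%). Their median female against male log2 difference was 0.31 in PP and -0.26 in LL mice, and that of the ER chaperones 0.20 and -0.22. Without male LL 2 the LL medians were -0.08 and -0.10. The cytosolic one was -0.43 without male LL 4, and that of the chaperones -0.40 without female LL 2. The latter median was 0.14 in LL mice without the 3 libraries of shortest fragments, and the former -0.15. The PP and LL sex differences and the male and female genotype differences are built from the same 4 groups and are not independent.

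The pathway beyond the members was read from lists of other genes with the same roles, 172 genes of which 154 were tested. By LL genotype 0 of these were called in males by DESeq2, with 13 higher (3.84% of all genes) and 2 lower (3.97%) at an unadjusted P below 0.05, and 1 in females, where 0.658% of all genes were. Of the 154, 106 had an adjusted P in males and 146 in females. The gene called in females was Ptges3, the HSP90 co-chaperone p23, with 373 ± 52.7 normalized counts in PP and 530.3 ± 89.0 in LL females (SD, n = 5 each) and a log2 fold change of 0.51 ± 0.14 (SE, adjusted P = 0.0476). In males it was at 380.5 ± 82.4 in PP and 529 ± 29.0 in LL mice (SD, n = 4 each), and averaged over the sexes it was called at 0.49 ± 0.11 (SE, adjusted P = 0.00221). Of 30 other cytosolic chaperones, 26 estimates were above 0 in males with a median of 0.21, and 9 were higher at an unadjusted P below 0.05. In females 16 of the 30 were above 0, with a median of 0.02. The 15 other targets of ATF4 had medians of 0.11 and 0.22, and the 6 RNAs known to be cut by IRE1 medians of 0.20 in males and -0.05 in females, with 0 called in either list by DESeq2 and, at an unadjusted P below 0.05, 1 and 2 of the former and 1 and 1 of the latter in males and females, beside 7.81% and 13.0% of all genes. Of the 6 RNAs cut by IRE1, 3 had estimates above 0 in males and 2 in females. The part of cell types other than hepatocytes in these values was not tested, so they are not a measure of IRE1 activity. ER import and glycosylation (27 tested), other ER folding and export (24), other ER-associated degradation (19), other ER stress regulators (20) and other mitochondrial chaperones (13) had medians between -0.08 and 0.07 in both sexes.

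Between the sexes 9 of the 154 genes were called in PP mice, 6 higher and 3 lower in females, beside 6.45% of all genes. In LL mice 6 were called, 3 in each direction, beside 6.12% of all genes, so neither share was above that of all genes. Fkbp11, an ER prolyl isomerase, was lower in both, at 84.0 ± 16.4 normalized counts in PP males and 30.4 ± 11.6 in PP females (SD). Asparagine synthetase (Asns) had 28.2 ± 15.5 in PP males and 0.873 ± 1.12 in PP females, and Vldlr 1.15 ± 1.36 and 29.03 ± 24.04. The others called in PP mice were Sparc, Serpinh1, Atf5, Fkbp4 and Grpel2, higher in females, and Txndc11, lower. In LL mice they were Bloc1s1 and Slc3a2, higher, and Sec61g, lower, beside Vldlr, Asns and Fkbp11.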

How the data were processed

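The liver RNA of 18 mice was purified by the authors with DNase digestion, and samples with a RIN above 6 were sequenced. Reads were checked with FastQC and assigned to GENCODE M26 transcripts of GRCm39 with Salmon (version 1.4.0 in the submitters' processing notes). The deposited tables hold, for each of 139225 transcripts, the estimated count that Salmon gave, which the authors did not scale between libraries, and the TPM, which the authors' run scaled to the same total in each library. The lengths and effective lengths in the same tables gave the fragment length of a library, as the median difference over transcripts of at least 3000 bases.

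Transcripts were joined to genes through GENCODE M39 (137570 transcripts, at least 99.76% of the counts of a library), summed and rounded. Members and lists were chosen with earlier results of these data known. DESeq2 1.42.0 (R 4.3.3, Wald test, median-of-ratios size factors) was fitted to all 18 libraries with the 4 groups as levels, on the 10938 genes that reached 10 counts in 4 or more libraries. P values of DESeq2 were adjusted by Benjamini-Hochberg over the genes that independent filtering kept, and the adjusted P of the others was left empty. Of the 10938 genes, 3301 had an adjusted P in males, 8598 in females, 7541 averaged over the sexes and 1606 for the interaction. Between the sexes it was 10930 in PP and in LL mice. For edgeR the adjustment was over all genes tested. Genes were called at an adjusted P below 0.05 and a fold of at least 1.3 or at most 0.7, with no fold limit for the interaction. Alternatives were edgeR 4.0.16 (quasi-likelihood), TMM scaling, other filters, age or fragment length as a term, a transcript length offset, only the groups compared, a replicate block, each library left out, and, added after the data were seen, the 3 libraries of shortest fragments left out. The fit was tested on simulated data with known changes. Single values were compared with two-sided exact permutation tests, whose smallest p is 0.0286 at 4 against 4 and 0.00794 at 5 against 5 mice. The p values set a difference against the spread between mice.

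Values in every mouse are given for members called in any comparison, for the sensors, Xbp1, Atf4, Ddit3 and Hspa5, and for the member of each group with the widest range or the largest genotype difference. Other genes of the pathway are named only where called, at most 5 per list. Hsp90aa1, Hsph1, Hspa4, Hspd1, Hspa9 and other members outside this rule were named after their values were seen. The closest pair of same-group libraries had a chi-square per degree of freedom of 12.4, so none was a repeat of another. The comparison of Hspe1 with genes of similar sequence is not reported here.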

Additional observations from a re-analysis of the deposited data

Results flagged for a closer look

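In 3 of 68 sets of mice tested (17 members in 4 groups) 1 mouse lay far from the others of its group, and chance flags about 1 in 20. Hspa5 was at 4568 normalized counts in male LL 2 and at 3133 to 3373 in the other male LL mice. Hspb1 was at 64.6 in female LL 5 and at 20.8 to 31.9 in the other female LL mice. Ern1 was at 104 in male LL 4 and at 99.5 to 99.9 in the other male LL mice, a set with little spread.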

How the results depend on the processing

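With edgeR 0 members were called in males in place of 4, 0 in females in place of 1 and 1 between PP sexes in place of 2. With fragment length as a term, or with the length offset, 0 were called in males and 0 in females. The fragment term gave 2 averaged over the sexes in place of 1 (Ern1 and Xbp1), and 2 between LL sexes in place of 1, as did the length offset and age as a term. The length offset gave 1 between PP sexes. In males, 2 were called with no filter on low counts, and 1 each with no independent filtering, with age as a term and with only the groups compared, a setting that gave 5 between PP sexes. Without the 3 libraries of shortest fragments, an alternative chosen after seeing the data, 0 were called in males and 0 in females. The cause of these moves was not tested.

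Leaving out 1 library at a time gave 0 to 4 called members in males, 0 to 3 in females, 1 to 3 averaged over the sexes, 1 to 3 between PP sexes, 1 to 4 between LL sexes and 0 to 2 for the interaction (2 without male LL 4). Deviations of same-numbered mice correlated between -0.169 and 0.159, and the replicate numbers were not read as pairs. Within each group the labelled age never fell as the number rose, so the replicate block overlaps age. With the replicate block 2 members were called in males and 2 averaged over the sexes. No estimate of a called member changed sign in any alternative. Depth limits Ddit3, Trib3 and Hspa1b, with at most 27, 15 and 22 counts in any library.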
